A study of Mus musculus with 96 samples.

Results

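The genes described here are those of the mouse mitochondrial genome, taken as every row of the gene count table whose symbol starts with mt-. The annotation lists 37 such genes on chromosome MT, made up of 13 protein genes, 22 transfer RNA (tRNA) genes and 2 ribosomal RNA genes. The 13 protein genes and 22 tRNA genes, 35 of the 47373 genes in the table, are described here, and the 2 ribosomal RNA genes are not analysed here. The study measured total RNA of mouse liver by stranded sequencing after depletion of ribosomal RNA, in 96 libraries from 12 animals. All animals were male B6C3F1 mice (a cross of C57BL/6 and C3H strains), 10 to 11 weeks old, and 6 had drunk water with 600 ppm phenobarbital (PB), a drug that induces liver drug-metabolising enzymes, for 7 days, while the 6 controls (Con, 0 ppm) had not. Liver of each animal was kept in 8 states, giving 16 groups of 6 libraries, so the same 12 animals recur in every state.

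The reference state was frozen liver (FR). Mixed lobes of the frozen liver were also kept for 3 months in 70% ethanol (OH), for 18 hours in 10% buffered formalin and then in ethanol up to 3 months (18F), or in formalin for the whole 3 months (3F), and each was then embedded in paraffin. A further 4 states started from the 3-month formalin material. TAE, CAT_AP and CAT_PL aimed to remove formaldehyde adducts. TAE was isolated RNA held for 30 min at 70 °C in a Tris-acetate-EDTA buffer. CAT_AP had an organocatalyst for 18 hours at 55 °C and was isolated with the AllPrep kit. CAT_PL had the same catalyst step and was isolated with PureLink. HEAT, the control for the catalyst, had 18 hours at 55 °C without it and was isolated with AllPrep. Library totals ran from 1264563 to 18442730 counts with a median of 11913138. Depth moved with state, from 14527636 to 18442730 counts in frozen libraries against 1264563 to 10217453 in 3-month formalin libraries, and its part in the differences below was not tested. Hepatocyte markers (Alb, Apoa1, Ttr, Cps1, Serpina1c and Hnf4a) all had counts, with a summed level of 60140 to 85660 CPM (counts scaled to a library total of 1000000) in frozen control liver and 31110 to 58770 CPM in 3-month formalin control liver. Both states hold liver of the same animals, and CPM is a share of the library, so this difference is not read as fewer cells. Between treatments, fewer cells of a type and less RNA per cell cannot be told apart in bulk samples.

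Mitochondrial DNA is a small circle present in many copies per cell, and liver cells are rich in mitochondria. Both of its strands are transcribed by a dedicated polymerase into long precursors, in which tRNAs lie between most of the messenger and ribosomal RNAs, and cutting out the tRNAs frees the other RNAs. The messenger RNAs (mRNAs) carry short poly(A) tails and encode core subunits of the respiratory chain: complex I (mt-Nd genes), complex III (mt-Cytb), complex IV (mt-Co genes) and ATP synthase (mt-Atp genes). Pieces of mitochondrial DNA have also been copied into nuclear chromosomes over evolution, and reads from such a stretch can match both places.

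One such set of nuclear copies covers a run of neighbouring members that held almost no counts here. The sequences below, from the GENCODE M21 transcripts on GRCm38, show where the matches start in mt-Co1, where they end in mt-Nd4, and the single base by which mt-Nd3 differs from its nuclear copy; capitals mark the first bases with a nuclear copy in mt-Co1, the last bases with one in mt-Nd4, and the differing base in the mt-Nd3 pair. Positions are MT:6350-6429, MT:11003-11082 and MT:9459-9518 on the plus strand and chr1:24613060-24613119 on the minus strand.
mt-Co1 at the start of the copy: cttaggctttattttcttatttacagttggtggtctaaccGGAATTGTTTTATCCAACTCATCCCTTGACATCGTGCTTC
mt-Nd4 at the end of the copy: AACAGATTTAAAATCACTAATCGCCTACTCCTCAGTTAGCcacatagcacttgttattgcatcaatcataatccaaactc
mt-Nd3 first bases: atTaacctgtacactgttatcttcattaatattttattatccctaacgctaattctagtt
Gm28438 first bases: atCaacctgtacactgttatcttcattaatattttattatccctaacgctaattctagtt

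Matches to 7 neighbouring pseudogenes on the minus strand of chromosome 1, between bases 24611535 and 24616197, fell between bases 6390 and 11042 of the mitochondrial genome, called the copied stretch here. Annotated transcripts were searched, not the genome sequence between them, so a match over the whole stretch was not shown, and mt-Atp8 and the tRNA genes in it had no matching transcript. Gm28661 (from mt-Co2, 681 bases), Gm10925 (mt-Atp6, 678 bases), Gm28437 (mt-Co3, 783 bases), Gm10222 (mt-Nd4l, 294 bases) and Gm28439 (mt-Nd4, 876 bases) matched the mitochondrial sequence at 100%. Gm29216 (mt-Co1, 483 bases) matched at 99.79%. Gm28438 (mt-Nd3, 345 bases) matched at 99.71%, with T9461C as its 1 mismatch, counted from the first base of the mitochondrial genome and read on its plus strand, which is position 3 of the gene.

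The 6 protein genes inside the copied stretch held almost no counts. Over all 96 libraries mt-Co3 (a complex IV subunit) had 86 counts, mt-Co2 (complex IV, its copper-binding subunit) 66, mt-Atp6 (the proton channel subunit of ATP synthase) 47, mt-Nd4l (complex I) 11, mt-Nd3 (complex I) 6 and mt-Atp8 (ATP synthase) 4. Together these came to 220 of the 54568968 counts on mitochondrial protein genes. At most 9 counts fell on any of them in a single library, mt-Co3 had a count in 49 libraries and mt-Nd3 in 2. A nuclear transcript matched 98.99% to 99.87% of the bases of mt-Co2, mt-Atp6, mt-Co3, mt-Nd3 and mt-Nd4l, while mt-Atp8 lies in the same stretch without an annotated nuclear gene of its own. The pseudogenes were themselves low, with 166 counts for Gm28439 to 558 for Gm29216 over all libraries, apart from Gm28438, which had 4746. How the counting treated reads that match more than 1 place is not given in the sources used here. Its part in the low counts was not tested, the levels of these 6 genes are not read from the table, and none is compared on its own below. Their 220 counts remain in the sums over all mitochondrial protein genes used below, which rest almost wholly on the other protein genes.

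**Figure D1:**
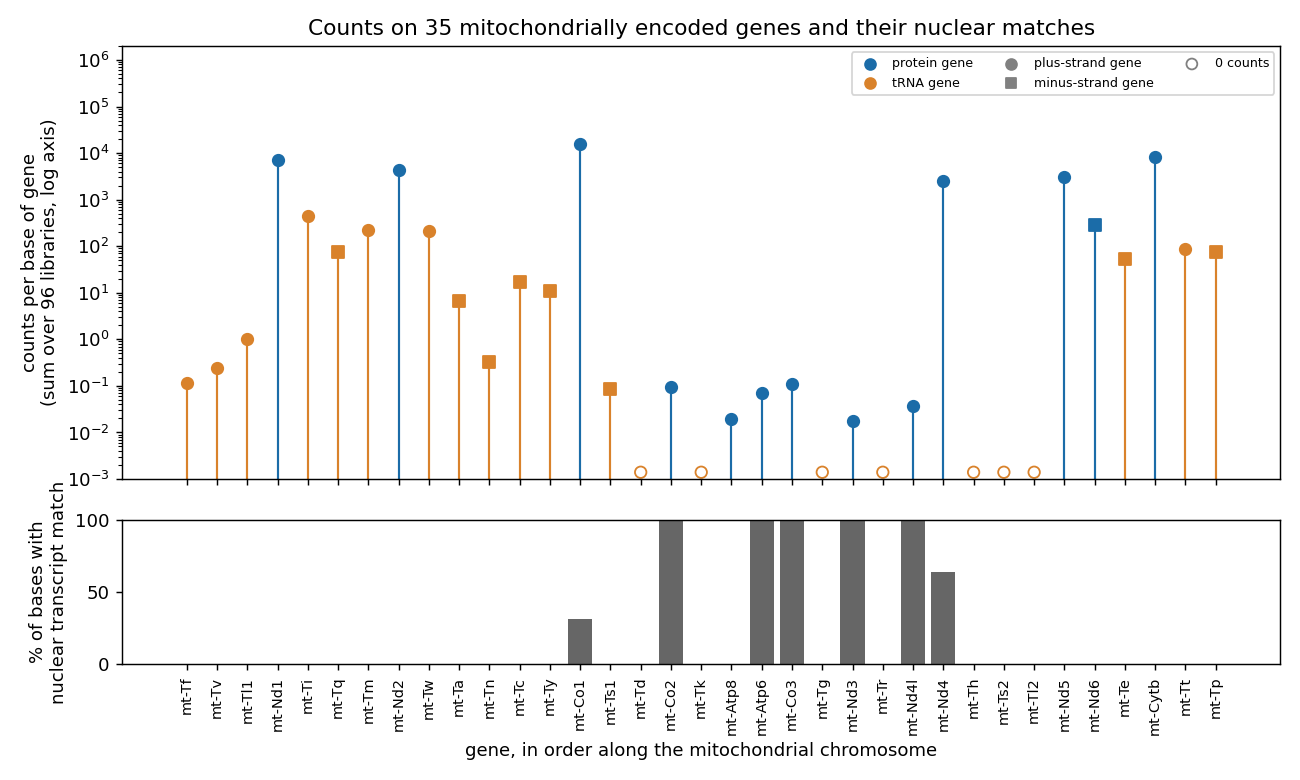
Counts per base of gene, summed over the 96 libraries, on a log axis, for the 35 mitochondrial genes in chromosome order, with the percent of each gene's bases that match a nuclear transcript. The 6 neighbouring protein genes, from mt-Co2 to mt-Nd4l, fall to near 0, and they lie between mt-Co1 (15980 counts per base) and mt-Nd4 (2461 counts per base).

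The other 7 protein genes carried nearly all mitochondrial counts: mt-Nd1 (MT:2751-3707), mt-Nd2 (MT:3914-4951), mt-Co1 (MT:5328-6872), mt-Nd4 (MT:10167-11544), mt-Nd5 (MT:11742-13565) and mt-Cytb (MT:14145-15288) on the plus strand and mt-Nd6 (MT:13552-14070) on the minus strand. In frozen liver, levels per length, in CPM per kilobase, were 8691 ± 1572 (SD, n = 12) for mt-Co1, the catalytic subunit of complex IV, and 3606 ± 556 for mt-Cytb, the cytochrome b of complex III. Among complex I subunits the levels were 2856 ± 488 for mt-Nd1, 1610 ± 170 for mt-Nd2, 1190 ± 167 for mt-Nd5, 1045 ± 160 for mt-Nd4 and 126 ± 30.4 for mt-Nd6. mt-Nd5 and mt-Nd4 were neighbours in that order that differed by less than the SD of either, and the ranges of mt-Cytb (2878 to 4599) and mt-Nd1 (2111 to 3785) overlapped. The place of mt-Nd4 depends on its copied bases. Divided by its 502 bases without a nuclear copy, mt-Nd4 stood at 2868 CPM per kilobase, beside mt-Nd1, and mt-Co1, divided by its 1062 such bases, at 12644, values that hold if no count came from the copied bases, which was not tested.

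The 22 tRNA genes held 82124 counts, 0.150% of all counts on mitochondrial genes. Mature tRNAs are short, folded and heavily modified, and are poorly captured by libraries of this kind. The 4 highest genes by total count were mt-Ti (isoleucine tRNA, 30360 counts), mt-Tm (methionine, 15495), mt-Tw (tryptophan, 14090) and mt-Tt (threonine, 5778). They were followed by mt-Tq (glutamine, 5296), mt-Tp (proline, 4964), mt-Te (glutamate, 3650), mt-Tc (cysteine, 1146), mt-Ty (tyrosine, 742) and mt-Ta (alanine, 471). Another 5 tRNA genes, mt-Tl1, mt-Tn, mt-Tv, mt-Tf and mt-Ts1, had 6 to 78 counts in all and never reached 10 in a library. The remaining 7 were at 0 in all 96 libraries. Of those 7, mt-Td, mt-Tk, mt-Tg and mt-Tr lie in the copied stretch, where no level is read. mt-Th, mt-Ts2 and mt-Tl2 lie outside it, and their 0 allows up to 0.00262 CPM over the pooled libraries (3 counts, counting error only).

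Sequences are shown for the 4 highest tRNA genes and for mt-Tp, the tRNA gene that moved most in the mildest states, because their places on the circle bear on what a count on them can mean. From GENCODE M21 on GRCm38, they lie at MT:3706-3774, MT:3845-3913, MT:4950-5016 and MT:15289-15355 on the plus strand and MT:15356-15422 on the minus strand, and capitals mark bases shared with a neighbouring gene.
mt-Ti: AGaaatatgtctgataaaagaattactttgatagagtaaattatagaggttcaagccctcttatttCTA
mt-Tm: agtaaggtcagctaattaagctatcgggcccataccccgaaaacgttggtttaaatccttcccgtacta
mt-Tw: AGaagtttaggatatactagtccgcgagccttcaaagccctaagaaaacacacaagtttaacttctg
mt-Tt: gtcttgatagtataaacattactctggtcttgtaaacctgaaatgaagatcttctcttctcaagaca
mt-Tp: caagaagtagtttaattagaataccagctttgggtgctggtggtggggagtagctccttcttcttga

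mt-Ti starts on the last bases of mt-Nd1, mt-Tm ends at the base before mt-Nd2, mt-Tw starts on the last bases of mt-Nd2, and mt-Tt begins at the base after mt-Cytb with mt-Tp next to it on the other strand. Counts on these genes can come from the tRNA, from uncut precursor or from the ends of the neighbouring mRNA, and gene counts do not separate these sources. Per base of gene, mt-Ti had 440 counts over all libraries and mt-Tm 224.6, against 6963 for mt-Nd1 and 4432 for mt-Nd2, between which both lie.

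Mitochondrial mRNAs took a larger share of the library in every state that had been through 3 months of formalin, and differed from frozen liver by less than the spread after ethanol or 18 hours of formalin. The 13 protein genes made up 2.56% ± 0.405 (SD, n = 12) of library counts in frozen liver, 2.74% ± 0.535 in ethanol and 2.59% ± 0.549 in 18-hour formalin. Their share was 9.90% ± 2.40 in 3-month formalin, 6.39% ± 1.55 in TAE, 8.28% ± 3.55 in HEAT, 4.83% ± 0.706 in CAT_AP and 4.56% ± 0.756 in CAT_PL. In each of these 5 states the share was above the same animal's frozen liver in 12 of 12 animals (exact two-sided sign-change permutation test over animals, p = 0.000488, the smallest it can give; 0.000621 after Benjamini-Hochberg adjustment over 2 classes and 7 states). Ethanol was higher in 8 of 12 animals (exact permutation test, adjusted p = 0.199) and 18-hour formalin in 6 of 12 (exact permutation test, adjusted p = 0.792).

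The tRNA class moved the same way in the 5 states and also in 18-hour formalin, where the mRNA class had not. Its share was 0.00313% ± 0.000666 in frozen liver, 0.00349% in ethanol, 0.00471% ± 0.000977 in 18-hour formalin, 0.0205% ± 0.00567 in 3-month formalin, 0.00870% in TAE, 0.0107% in HEAT, 0.00620% in CAT_AP and 0.00751% in CAT_PL. All but ethanol (8 of 12 animals, exact permutation test, adjusted p = 0.174) were higher in 12 of 12 animals (exact permutation test, adjusted p = 0.000621). Within a library, the log2 ratio of tRNA to mRNA counts averaged -9.69 in frozen liver and does not use the library total. It was higher by 0.59 in 18-hour formalin (11 of 12 animals), by 0.75 in 3-month formalin (12 of 12) and by 0.44 in CAT_PL (11 of 12; exact permutation test, adjusted p = 0.00228 for each). It differed by 0.05 in ethanol, 0.19 in TAE, 0.13 in HEAT and 0.08 in CAT_AP, none past the threshold (exact permutation tests, adjusted p = 0.13 to 0.388).

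**Figure D2:**
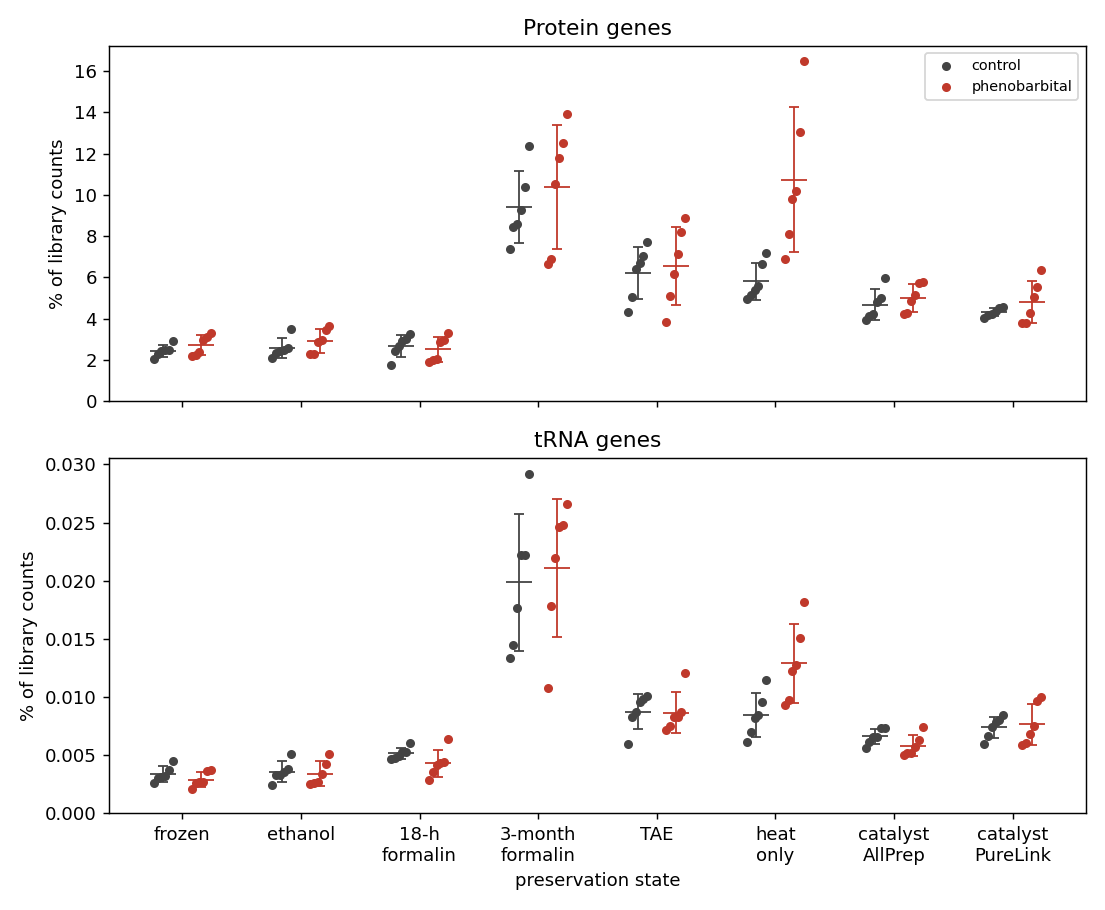
Percent of library counts on mitochondrial protein genes and on mitochondrial tRNA genes, each on its own linear axis from 0, for the 12 libraries of each of the 8 states, phenobarbital and control points apart. Mean mRNA shares are 2.56% in frozen, 2.74% in ethanol and 2.59% in 18-hour formalin libraries, and the 3-month formalin means are the highest in both classes (9.90% and 0.0205%).

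Gene by gene, all 7 protein genes were higher in 3-month formalin than in frozen liver. mt-Nd1 had 2020 to 3622 CPM in frozen liver (median 2575) and 9763 to 22290 in 3-month formalin (median 15201). mt-Nd2 went from 1411 to 1885 CPM (median 1685) to 6340 to 16302 (median 11325). mt-Co1, the highest of the genes, went from 10624 to 17958 CPM (median 12620) to 25792 to 49730 (median 37051). The 12 libraries of one state did not overlap with the 12 of the other for these 3 genes. The share of all genes without such overlap was not counted, so it is not read as a trait of the members. The other plus-strand genes showed the same: mt-Nd4 had 1135 to 1777 CPM frozen (median 1431) and 3335 to 10062 in formalin (median 7170). mt-Nd5 had 1733 to 2566 CPM frozen (median 2223) and 6023 to 16962 in formalin (median 10908). mt-Cytb had 3292 to 5261 CPM frozen (median 4042) and 12792 to 24461 in formalin (median 18590). mt-Nd6, the lone protein gene on the minus strand, was the 1 gene of the 7 whose states overlapped, at 35.6 to 94.2 CPM (median 61.6) against 68.6 to 311 (median 158).

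In the fit across all 13477 genes, the 7 protein genes rose in 3-month formalin by 1.33 to 2.69 on the log2 scale with a median of 2.21, where the median of all genes was -0.0059. The smallest rise among them was that of mt-Co1 (1.33 ± 0.12, SE; edgeR's quasi-likelihood test with Benjamini-Hochberg adjustment, adjusted p = 3.52e-10) and the largest that of mt-Nd2 (2.69 ± 0.15, adjusted p = 3.53e-14). mt-Nd6 rose by 1.37 ± 0.21 (adjusted p = 3.4e-06). The 8 tRNA genes that passed the low-count filter rose by 1.93 (mt-Tq) to 3.20 (mt-Tm, SE 0.17, adjusted p = 1.77e-14), with a median of 2.76. All 15 members tested were thus called higher, where 29.6% of all genes tested were called higher and 30.7% lower. Members reach the filter by their level in either state, so the 15 are not all members. mt-Tc (median 0.460 CPM in frozen liver and 2.07 in 3-month formalin; log2 fold change 3.00 ± 0.55) was not among the 14 tested in the other comparisons with frozen liver, so its call counts for nothing here.

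The 4 states made from 3-month formalin material showed the same direction, with smaller class medians than 3-month formalin itself. mt-Nd6 was an exception in size, at 1.38 ± 0.18 in HEAT and 1.56 ± 0.16 in CAT_PL against 1.37 in 3-month formalin. In TAE 13 of 14 members tested were called higher than frozen (31.6% of all genes), with a median of 1.25 for mRNA genes and 1.14 for tRNA genes, and mt-Te (0.89, adjusted p = 0.0643) missed the threshold, which it passed with the animal as a replicate block (0.91, adjusted p = 0.000236). In HEAT 14 of 14 were called higher (28.4% of all genes), with medians of 1.47 and 1.64. In CAT_AP it was 13 of 14 (27.8% of all genes), with medians of 0.78 and 0.937, and mt-Te (adjusted p = 0.102) was again the member missed, with an adjusted p of 0.00214 under the replicate block. In CAT_PL it was 14 of 14, where 31.5% of all genes were called higher and 27.7% lower, with medians of 0.721 and 1.06. The medians of all genes in these 4 fits lay between 0.0119 and 0.0393.

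**Figure D3:**
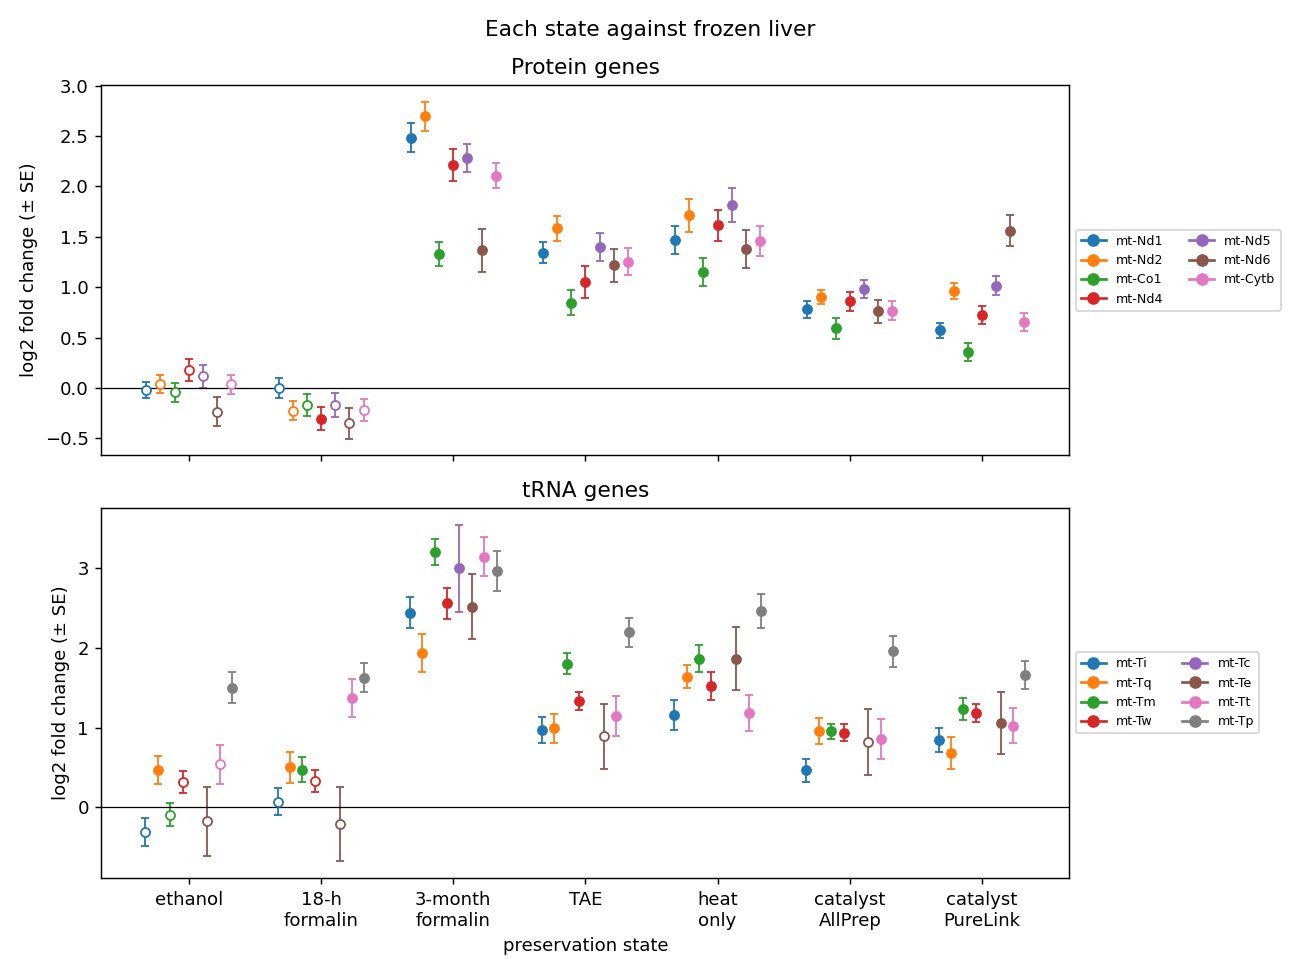
Log2 fold change against frozen liver for each mitochondrial protein and tRNA gene tested, in each of the 7 other states, from edgeR fits over 12 libraries each side; filled points have an adjusted p under 0.05, and bars are standard errors. Points lie between -0.312 and 1.50 in ethanol and between -0.349 and 1.63 in 18-hour formalin, with mt-Tp the highest in both. Points of 3-month formalin lie between 1.33 and 3.20.

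Ethanol and short formalin left the protein genes near their frozen level. In ethanol no mRNA gene passed (log2 fold changes of -0.24 to 0.18), and 2 tRNA genes, mt-Tp and mt-Tq (0.46 ± 0.18, adjusted p = 0.0451), were called higher of 14 members tested, where 17.0% of all genes were. In 18-hour formalin mt-Nd4 fell by 0.30 on the log2 scale (SE 0.11, adjusted p = 0.0311), and 4 tRNA genes rose, namely mt-Tp, mt-Tt, mt-Tq (0.50, adjusted p = 0.0378) and mt-Tm (0.47, adjusted p = 0.0175). These 4 higher and 1 lower of 14 members compare with 20.5% of all genes higher and 20.6% lower. The labels tie every library to an animal, and with the animal as a replicate block more of these small differences passed. In ethanol 7 members were then called, 5 higher and 2 lower, among 53.0% of all genes. In 18-hour formalin 11 were called, 5 tRNA genes higher and 6 mRNA genes lower by 0.18 (mt-Co1) to 0.37 (mt-Nd6) on the log2 scale, among 57.9% of all genes.

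mt-Tp was called higher than frozen in all 7 other states, and it is named here after its values were seen. It had 0.394 to 2.00 CPM in frozen liver (median 1.07), 1.46 to 4.72 in ethanol (median 3.30) and 2.58 to 5.36 in 18-hour formalin (median 3.47). Frozen and ethanol libraries overlapped, and frozen and 18-hour formalin libraries did not. How many of all genes lack such overlap was not counted. The rise was 1.50 ± 0.20 in ethanol (adjusted p = 2.41e-06) and 1.63 ± 0.18 in 18-hour formalin (adjusted p = 8.19e-08), and reached 2.97 ± 0.26 in 3-month formalin. Relative to the mRNA sum of the same library, the log2 ratio of mt-Tp was higher than frozen by 1.51 in ethanol, 1.85 in 18-hour formalin, 1.15 in TAE, 1.10 in HEAT, 1.25 in CAT_AP and 1.13 in CAT_PL, in 12 of 12 animals each time (exact permutation test, adjusted p = 0.00228). In 3-month formalin it was higher by 1.07, in 10 of 12 animals (exact permutation test, adjusted p = 0.00576). At frozen library totals these levels rest on few counts.

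mt-Tt, its neighbour on the plus strand, passed the test in 18-hour formalin (1.37 ± 0.23, adjusted p = 3.51e-05) and not in ethanol, where it passed under the replicate block (0.55, adjusted p = 0.00988). It had 0.207 to 3.99 CPM in frozen liver (median 1.91), 1.59 to 4.72 in ethanol (median 2.78), 3.78 to 7.99 in 18-hour formalin (median 5.58) and 9.78 to 31.6 in 3-month formalin (median 15.3). The 3-month formalin libraries lay above all libraries of the other 3 states, and neighbouring states among those 3 overlapped. Here too, the share of all genes that separate in this way was not counted. The log2 ratio to mRNA was higher than frozen by 1.74 in 18-hour formalin and by 1.44 in 3-month formalin, in 12 of 12 animals each (exact permutation test, adjusted p = 0.00228), and by 0.71 in ethanol (adjusted p = 0.0263 by the exact permutation test). In the 4 states made from 3-month formalin material it was at a median of 4.77 CPM in TAE, 5.46 in HEAT, 4.21 in CAT_AP and 4.45 in CAT_PL. Of the 15 members tested between HEAT and 3-month formalin, mt-Tt had the largest fall (log2 fold change -1.95 ± 0.18).

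The 3 highest tRNA genes were higher in 3-month formalin than in frozen liver. mt-Ti had 8.43 to 21.6 CPM in frozen liver (median 13.9) and 40.5 to 150 in 3-month formalin (median 66.7). mt-Tm had 2.85 to 6.82 CPM (median 4.59) and 22.4 to 72.3 (median 46.0). mt-Tw had 3.45 to 6.98 CPM (median 5.00) and 10.2 to 50.1 (median 34.0). None of the 3 overlapped between the 2 states, and the share of all genes without such overlap was not counted. Against the mRNA sum, mt-Tm was higher than frozen by 1.30 in 3-month formalin, 0.73 in TAE, 0.66 in CAT_PL, 0.62 in 18-hour formalin, 0.50 in HEAT and 0.26 in CAT_AP, each past the threshold (exact permutation tests, adjusted p = 0.0273 or lower), and by -0.11 in ethanol (adjusted p = 0.303 by the exact permutation test). mt-Ti was higher by 0.51 in 3-month formalin (adjusted p = 0.00576) and lower in ethanol (-0.34, adjusted p = 0.016) and CAT_AP (-0.24, adjusted p = 0.041), by the same exact permutation test. The tRNA genes thus changed by unlike amounts within a state.

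The 7 protein genes also changed by unlike amounts. Each was set against the mean log2 count of the other 6 in the same library, a measure that does not use the library total, and compared with the same animal's frozen liver by the exact sign-change permutation test, adjusted over 7 genes and 7 states. mt-Co1 was relatively lower than in frozen liver by 0.81 in 3-month formalin, 0.44 in TAE, 0.41 in HEAT, 0.25 in CAT_AP and 0.55 in CAT_PL, in 12 of 12 animals each (exact permutation test, adjusted p = 0.00133). It differed by -0.05 in ethanol and 0.05 in 18-hour formalin, neither past the threshold (exact permutation tests, adjusted p = 0.401 and 0.224). The gene that dominates the class therefore gave a smaller part of it in all 5 states.

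mt-Nd2 had the largest gain of the 7 in 3-month formalin and TAE, by 0.73 in 3-month formalin and 0.40 in TAE, in 12 of 12 animals each (exact permutation test, adjusted p = 0.00133), and by 0.22 in HEAT, 0.11 in CAT_AP and 0.15 in CAT_PL (exact permutation tests, adjusted p = 0.00383, 0.0107 and 0.00299). mt-Nd5 was relatively higher in all but 18-hour formalin (0.03, adjusted p = 0.401 by the exact permutation test), by 0.11 in ethanol to 0.33 in HEAT (exact permutation tests, adjusted p = 0.00299 or lower). mt-Nd1 gained 0.25 in 18-hour formalin, 0.49 in 3-month formalin and 0.14 in TAE, and was lower in CAT_PL by 0.30 on the log2 scale, in 0 of 12 animals higher (exact permutation test, adjusted p = 0.00133). That last difference is lost when the gene is taken as a percent of the sum of the 7 (0.056 percentage points higher, adjusted p = 0.613 by the exact permutation test). mt-Nd4 differed by 0.19 in ethanol and -0.26 in TAE, each in the same direction in all 12 animals, and by -0.13 in CAT_PL, a sign that turned as a percent of the sum (0.639 points higher) or with mt-Nd6 left out of the reference (0.012). mt-Cytb differed by -0.06 in HEAT, -0.05 in CAT_AP and -0.21 in CAT_PL, signs that likewise turned as a percent of the sum (0.990, 0.568 and 0.964 points higher).

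mt-Nd6, read from the other strand, went down against the other 6 in 3-month formalin and up in CAT_PL. Its relative level was below frozen by 0.90 ± 0.70 on the log2 scale in 3-month formalin (0 of 12 animals higher) and above it by 0.83 ± 0.49 in CAT_PL (12 of 12 higher; exact permutation test, adjusted p = 0.00133 for both). In ethanol it was lower (-0.29, adjusted p = 0.0314 by the exact permutation test), and the other 4 states did not pass. In CPM mt-Nd6 had 80.3 to 167 in CAT_AP (median 126) and 149.5 to 431 in CAT_PL (median 220), groups that overlapped. mt-Nd6 overlaps the end of mt-Nd5 on the opposite strand, and with the strand setting of the counting not given, reads of the strands there cannot be told apart.

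**Figure D4:**
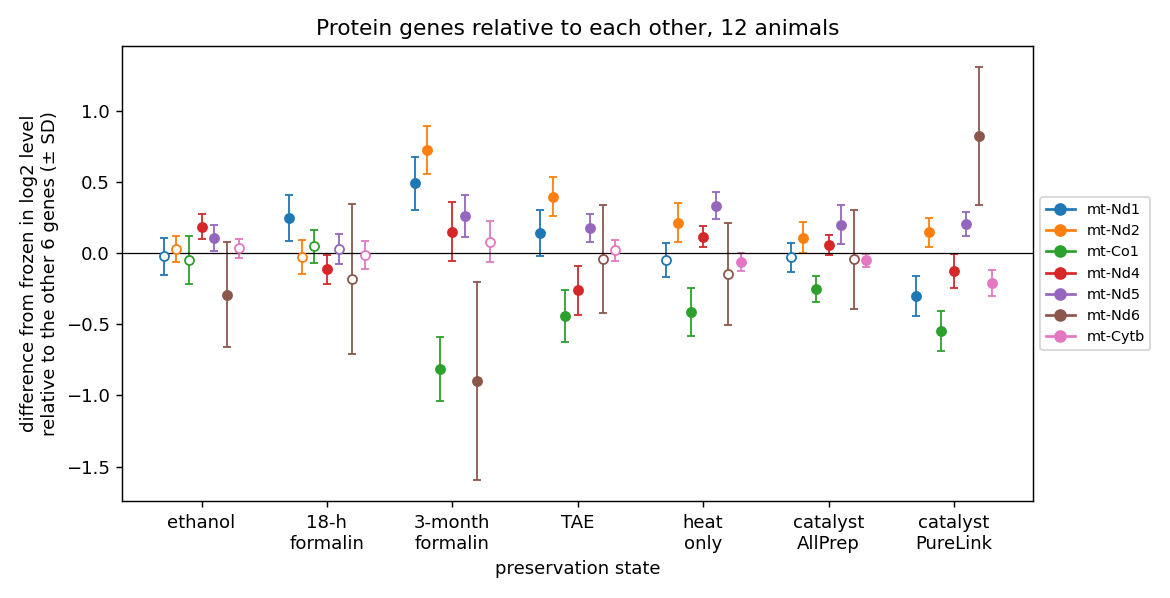
Log2 level of each of the 7 protein genes against the mean of the other 6 in the same library, minus the same animal's frozen value, for the 7 other states. Points are means over the 12 animals and bars are SDs. Filled points have an adjusted p under 0.05 by the exact permutation test. mt-Co1 lies below 0 and mt-Nd2 above 0 in the 5 states that went through 3-month formalin, and mt-Nd6 lies at 0.83 in CAT_PL.

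In each of the 4 states made from 3-month formalin material, most members tested were called lower than in that material untreated. In CAT_AP all 15 members tested were called lower (23.6% of all genes), with medians of -1.36 for mRNA genes and -1.87 for tRNA genes. In CAT_PL 14 of 15 were called lower (29.0% of all genes), and mt-Nd6, at 0.20, was the exception. In TAE 14 of 16 were called lower (9.42% of all genes), with medians of -0.90 and -1.42. In HEAT 9 of 15 were called lower (23.3% of all genes), while mt-Co1 (-0.17, adjusted p = 0.413), mt-Nd5 (-0.45, adjusted p = 0.0551) and mt-Nd6 (0.03, adjusted p = 0.924) among the mRNA genes did not pass. Under the replicate block mt-Nd5 passed (-0.47, adjusted p = 0.0323). mt-Tc passed the low-count filter in all 4 comparisons. Its median is highest in 3-month formalin (2.07 CPM), so any call of mt-Tc counts for nothing here. No member was called higher in any of these 4 comparisons. Which kit isolated the untreated 3-month formalin RNA is not known from the labels used, so kit and treatment cannot be told apart in them.

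The catalyst was compared with the same incubation without it, both isolated with AllPrep. Of 14 members tested 8 were called lower with catalyst, where 0.275% of all genes, 38 in number, were called lower. The mRNA genes called were mt-Nd1 (-0.73 ± 0.15, SE, adjusted p = 0.0223), mt-Nd2 (-0.85), mt-Nd4 (-0.79), mt-Nd5 (-0.87) and mt-Cytb (-0.73), and the tRNA genes mt-Ti (-0.74, adjusted p = 0.047), mt-Tq (-0.72, adjusted p = 0.0143) and mt-Tm (-0.95, adjusted p = 0.00259). mt-Co1 (-0.59, adjusted p = 0.0585) and mt-Nd6 (-0.66, adjusted p = 0.0711) did not pass. With the animal as a replicate block, 13 of 14 were called lower, among 5.90% of all genes. By treatment, the mRNA share was 5.81% in HEAT and 4.67% in CAT_AP for control animals, and 10.7% and 4.99% for phenobarbital animals; whether the catalyst difference itself differs between treatments was not tested.

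Between the kits after the catalyst, 1 of 14 members was called higher in CAT_PL than in CAT_AP, mt-Nd6 (log2 fold change 0.82, adjusted p = 0.0183), where 1.10% of all genes were called higher. With the replicate block 7 members were called. Those higher were mt-Nd6 (0.79), mt-Ti (0.39), mt-Tm (0.28) and mt-Tw (0.25), among 17.4% of all genes, and those lower were mt-Nd1 (-0.19), mt-Tq (-0.28) and mt-Co1 (-0.21), among 19.6%. The labels name both kits for the same catalyst-treated material, and each kit has 1 library per animal.

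Phenobarbital did not change any member past the threshold in frozen liver or in 6 of the 7 other states. In frozen liver 0 of 14 members were called, where 9.43% of all genes were (5.89% higher and 3.53% lower), and 2 members had an unadjusted p under 0.05. These were mt-Nd1, higher by 0.29 ± 0.11 (adjusted p = 0.0996), and mt-Ti, at -0.49 (adjusted p = 0.15). DESeq2 called mt-Nd1 (0.30, adjusted p = 0.0269), among 12.3% of all genes, and edgeR called mt-Ti (-0.67, adjusted p = 0.0257) when phenobarbital animal 20D was left out. In frozen liver mt-Nd1 had 2020 to 2687 CPM in controls (median 2512) and 2555 to 3622 with phenobarbital (median 2962), groups that overlapped.

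The other states gave the same count of 0 with edgeR's test. No member was called among 14 in ethanol (6.98% of all genes called), 14 in 18-hour formalin (4.88%), 16 in 3-month formalin (2.10%), 16 in TAE (3.29%), 14 in CAT_AP (4.94%) or 14 in CAT_PL (4.65%). Unadjusted p under 0.05 was reached by 1 member in ethanol, 1 in CAT_AP and 0 in the other 4, and DESeq2 also called 0 in these 6 states. The share of all genes at that unadjusted threshold was not counted, here or in frozen liver.

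HEAT was the exception. All 7 mRNA genes and mt-Tm, 8 of 15 members tested, were called higher with phenobarbital, where 3.53% of all genes were called higher and 1.50% lower. mt-Nd1 had 5449 to 8114 CPM in controls (median 5960) and 8549 to 19469 with phenobarbital (median 11437), groups that did not overlap (log2 fold change 1.02 ± 0.21, adjusted p = 0.0121). mt-Tm had 10.5 to 19.8 CPM in controls (median 13.4) and 21 to 38.6 with phenobarbital (median 25.9), also without overlap (1.02 ± 0.19, adjusted p = 0.00576). For both genes, the share of all genes without such overlap was not counted, so it is not read as a trait of the members. mt-Co1 had 22814 to 31610 CPM in controls (median 25475) and 30892 to 69608 with phenobarbital (median 44200), with overlap (0.84 ± 0.23, adjusted p = 0.0458).

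The remaining mRNA genes were higher by 0.93 ± 0.23 (mt-Nd2, adjusted p = 0.032), 0.91 ± 0.22 (mt-Nd4, 0.0262), 0.95 ± 0.24 (mt-Nd5, 0.0339), 0.89 ± 0.21 (mt-Nd6, 0.0244) and 0.86 ± 0.23 (mt-Cytb, 0.0412). Leaving out 1 animal in turn left 2 to 8 members called, 2 without control 8C and 8 without control 90C. mt-Nd1 and mt-Tm were called in all 12 such fits, and mt-Co1 lost its call in 11 of them, mt-Nd5 and mt-Cytb in 7 each, mt-Nd2 in 5, mt-Nd4 in 4 and mt-Nd6 in 2. As a share of the library, the mRNA genes of the 6 phenobarbital animals were at 16.5% (18B), 13.1% (18D), 10.2% (75C), 9.79% (20D), 8.08% (80B) and 6.87% (20B). The 6 controls were at 7.18% (90C), 6.64% (21C), 5.57% (8D), 5.36% (82B), 5.14% (8C) and 4.95% (8A). The means were 10.7% ± 3.51 and 5.81% ± 0.896 and 1 phenobarbital animal lay among the controls (exact permutation test, p = 0.00433, adjusted p = 0.0693 over 2 classes and 8 states). In the same HEAT libraries summed hepatocyte markers ran from 40680 to 53090 CPM in controls and from 20440 to 42710 with phenobarbital (1 of 6 called lower), and Kupffer cell markers from 126.8 to 366.5 and from 165.4 to 466.8 (0 of 6 called). Mean hepatocyte sums were lower with phenobarbital in all 8 states, in frozen liver at 53600 CPM against 70960 in controls. Mean Kupffer cell sums were higher in all 8, in frozen liver at 449.8 against 376.1. Neither direction was thus particular to HEAT. There the mean hepatocyte sums were 28850 CPM with phenobarbital and 46100 in controls, and the mean Kupffer cell sums 311.6 and 245.4. The sizes of these differences were not compared between states. All 6 markers of each list had counts, and the part of the markers in the result was not tested.

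**Figure D5:**
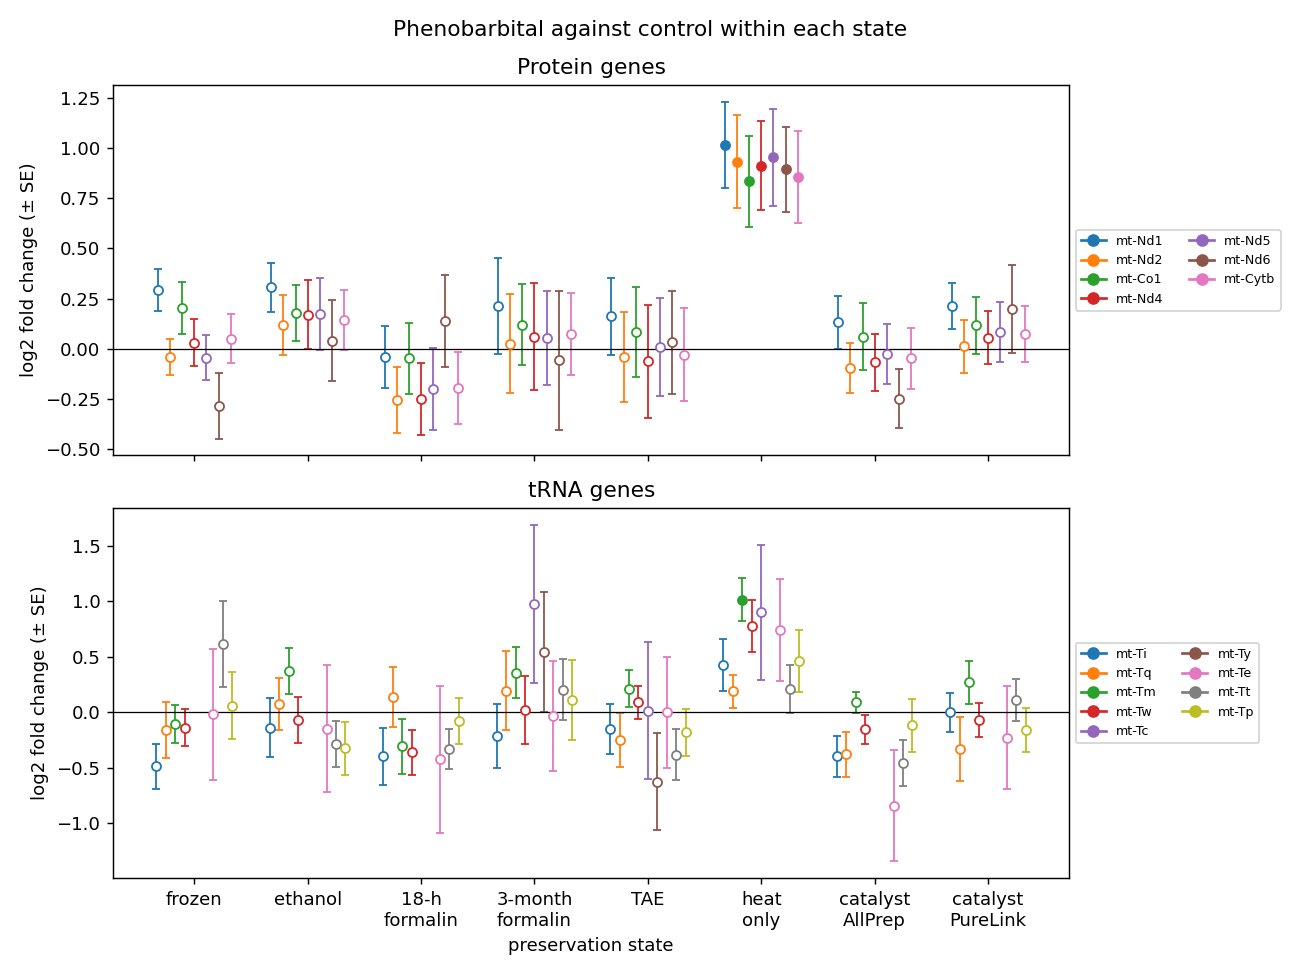
Phenobarbital against control in each of the 8 states: log2 fold changes of the members tested, from edgeR fits of 6 against 6 libraries, with filled points for an adjusted p under 0.05 and bars for standard errors. Filled points occur in HEAT alone, at 0.84 to 1.02, and members scatter around 0 in the other 7 states.

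An interaction term tested each state's phenobarbital effect against the frozen one. For all genes and all 7 states, 0 genes were called, which is 0% of those tested. Of 17 members tested for HEAT, 10 had an unadjusted p under 0.05, and for each other state 0 or 1 had. The share of all genes at that unadjusted threshold was not counted, so no excess is read from these counts. DESeq2 called 0 members in all 7. With the animal as a replicate block, 5 members were called for HEAT of 9 genes in all (0.0612% of genes), and they were mt-Tm (1.07, adjusted p = 0.00256), mt-Nd6 (1.10, adjusted p = 0.0202), mt-Nd5 (0.92, adjusted p = 0.0217), mt-Nd4 (0.82, adjusted p = 0.0217) and mt-Nd2 (0.89, adjusted p = 0.0389). By class, the log2 share in HEAT minus that in the same animal's frozen liver was 1.95 ± 0.335 with phenobarbital and 1.25 ± 0.196 in controls for mRNA genes, a difference of 0.697 (exact permutation test, 6 against 6, p = 0.00433, adjusted p = 0.0303). For tRNA genes it was 2.14 and 1.33, a difference of 0.816 (exact permutation test, p = 0.00216, the smallest it can give, adjusted p = 0.0303). These comparisons share their frozen libraries.

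Between genes, no relative level passed the threshold for phenobarbital after adjustment. mt-Nd1 stood higher against the other 6 with phenobarbital in all 8 states, by 0.09 in 18-hour formalin to 0.31 in frozen liver, and the frozen groups did not overlap (exact permutation test, p = 0.00216, adjusted p = 0.0606). The 8 states come from the same animals and are not independent. mt-Co1 was higher by 0.20 in frozen liver, also without overlap (exact permutation test, adjusted p = 0.0606). The log2 ratio of tRNA to mRNA counts was lower with phenobarbital in all 8 states, by -0.37 in frozen liver (exact permutation test, p = 0.0368, adjusted p = 0.126) to -0.03 in 3-month formalin, and none passed. No overlap occurred for the ratio of mt-Ti to mRNA in HEAT (-0.44) and of mt-Tt to mRNA in ethanol (-0.49), both with an adjusted p of 0.0693 by the exact permutation test.

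The nuclear genes read next came from 6 lists of 63 genes, of which 62 were tested. They transcribe, process, modify or degrade mitochondrial RNA, copy the genome, or regulate mitochondrial biogenesis. Yy1 and Ppara belong to the list of biogenesis regulators. Against frozen liver, 3-month formalin had 11 of them called higher and 31 lower, where 29.6% and 30.7% of all genes were, with a median of -0.231. Among those lower were Lrpprc (-0.98 ± 0.06), which stabilises mitochondrial mRNAs, Hsd17b10 (-1.14 ± 0.11), a subunit of the nuclease that cuts the 5′ ends of mitochondrial tRNAs, and Nsun2 (-0.57), a tRNA methyltransferase, and 9 of 12 tRNA modification genes were lower. Nsun3 (0.95), which methylates the mitochondrial methionine tRNA, Grsf1 (0.53), an RNA-binding protein of mitochondrial RNA granules, and Yy1 (0.60) were higher. In CAT_PL 14 were higher and 24 lower, where 31.5% and 27.7% of all genes were, with Hsd17b10 at -0.97 and Elac2, which cuts tRNA 3′ ends, at -0.47. Among those higher was Ssbp1 (0.41). Between CAT_AP and HEAT, and between the kits, 0 of 62 were called either way.

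With phenobarbital, 7 of these 62 genes were called in frozen liver, where 9.43% of all genes were. Higher were 3, Rexo2 (0.31, adjusted p = 0.0133), Gtpbp3 (0.38, adjusted p = 0.028) and Tfam (0.18, adjusted p = 0.0372), which packages mitochondrial DNA. A further 4 were lower, among them Polrmt (-0.20, adjusted p = 0.0267), the mitochondrial RNA polymerase, Polg (-0.26, adjusted p = 0.008), the DNA polymerase, and Ppara (-0.82 ± 0.15, adjusted p = 0.005), a nuclear receptor for fatty acids. In HEAT 0 were higher and 6 of 62 lower, where 3.53% and 1.50% of all genes were, namely Ppara (-0.81), Polg (-0.44), Mterf4 (-0.44), Trnt1 (-0.40), Lrpprc (-0.38) and Mto1 (-0.37), while the 8 mitochondrial members above were higher in the same libraries. Ppara was called lower with phenobarbital in all 8 states. Polg was also called lower in frozen liver, ethanol and CAT_AP, where edgeR called no member.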

How the data were processed

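For 96 liver libraries the authors deposited whole-number raw counts per gene, per the file headers, and a second deposited table of log2 values was not used. The stranded libraries had been depleted of ribosomal RNA, per the labels' protocols. The submitters' processing notes name CASAVA, STAR 2.5 and edgeR, and GRCm38 and mm10 as builds, with no roles. Not given in the sources used here are the counter, the annotation it used, its handling of strand, and the isolation kit of the OH, 18F, 3F and TAE states.

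The 92 spike-in rows (110 counts) were left out of library totals and tests. Symbols, positions and lengths came from GENCODE M21 (GRCm38), in which 46868 of 47373 genes were found. Class ratios with ribosomal RNA genes could not be made, since those genes are not analysed here. Nuclear copies were found with blastn 2.17.0 among annotated transcripts, at 98% identity or more over 50 bases or more. Levels are CPM on the library total.

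Counts of all genes were tested with edgeR 4.0.16 in R 4.3.3 (quasi-likelihood F test, TMM scaling, low-count filter by group, Benjamini-Hochberg adjustment at 0.05), and the scripts were tested on simulated data. Each standard error is the fold change (log2) over the root of F. States were compared with 12 libraries each side and treatment as a covariate, phenobarbital with 6 against 6. Shares and ratios (0.5 added to tRNA and mRNA counts) used exact two-sided permutation tests. Sample titles carry the animal, and the pairing was checked: deviations from group means, over 15641 genes, correlated above 0.1 in 336 of 336 same-animal pairs (median 0.424, lowest 0.101), against a median of -0.0804 between animals. Subtracting group means itself pushes the value between animals below 0, so that value is not an independent baseline. The libraries of a group are separate animals.

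All 13 protein and 22 tRNA genes are accounted for, with full values for the 7 protein genes past the filter and the 4 tRNA genes with the largest total count. Other genes were named from the machinery lists by their adjusted p. Members and lists were chosen with earlier results of these data known. Alternatives were DESeq2 1.42.0, RLE scaling, library totals alone, scaling without mitochondrial genes, no filter, nuclear denominators, the animal as replicate block and each animal left out. Other references for relative levels, a pseudocount of 5 and 2 named libraries left out were chosen after seeing the data. Intervals and floors cover counting error only.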

Additional observations from a re-analysis of the deposited data

Results flagged for a closer look

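In all, 4 values stood far from the other 5 of their group by Dixon's gap ratio. The 16 groups of 6 were tested on 3 related measures, 48 tests that are not independent, and chance alone gives such a gap in about 1 of 20 groups. The mRNA share of control animal 21C in ethanol was 3.482%, and the other 5 controls ran from 2.105% to 2.571%. The tRNA share of phenobarbital animal 18B in TAE was 0.01206%, with the other 5 at 0.007174% to 0.008719%. The log2 ratio of tRNA to mRNA counts was -9.921 in control 8C in ethanol, with the others at -9.538 to -9.336, and -7.968 in phenobarbital animal 18B in 3-month formalin, with the others at -9.324 to -8.897.

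The phenobarbital effect differed between HEAT and frozen liver in 7 values. The difference was 0.697 in the log2 share of mRNA genes and 0.816 in that of tRNA genes (exact permutation tests, adjusted p = 0.0303 for both, 6 against 6). By edgeR's interaction term with the animal as a replicate block it was 1.069 for mt-Tm, 0.8878 for mt-Nd2, 0.8213 for mt-Nd4, 0.9158 for mt-Nd5 and 1.099 for mt-Nd6. Without the block none of the 5 passed.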

How the results depend on the processing

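The numbers of members called in the 5 states from 3-month formalin against frozen liver were within 1.5 times of the reported ones under DESeq2, RLE scaling, library totals alone, scaling without mitochondrial genes, no filter and the replicate block. With 8A left out, 15 members were called in 3-month formalin, and with 18B left out 14 in HEAT. Elsewhere DESeq2 called 1 member for phenobarbital in frozen liver (0 with edgeR), library totals alone gave 4 for ethanol against frozen, and no filter gave 3 for 18-hour formalin against frozen. With the animal as replicate block, which follows the pairing in the titles, the counts were 7 for ethanol and 11 for 18-hour formalin against frozen, 13 for CAT_AP against HEAT, 7 for CAT_PL against CAT_AP and 5 for the HEAT interaction; the block moved no other count by over 1.5 times. It added calls for mt-Te in TAE and CAT_AP against frozen and for mt-Nd5 and mt-Tp in HEAT against 3-month formalin.

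As a percent of the sum of the 7 protein genes, relative levels turned for mt-Nd1 in CAT_PL (0.055953 points), mt-Nd4 in CAT_PL (0.63945) and mt-Cytb in HEAT (0.99033), CAT_AP (0.56833) and CAT_PL (0.96414), and with mt-Nd6 left out of the reference mt-Nd4 in CAT_PL came to 0.012314; the cause was not tested. Nuclear denominators turned no share, and a pseudocount of 5 turned no tRNA ratio.

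Leaving out each of the 12 animals in turn (leave-one-out) gave 0 to 1 members called for phenobarbital in frozen liver (1 without phenobarbital animal 20D) and 2 to 8 in HEAT. Differences from frozen liver ranged from -0.021923 to 0.063002 percentage points for the mRNA share in 18-hour formalin, from 0.00024722 to 0.00049994 for the tRNA share in ethanol, and, for the log2 tRNA to mRNA ratio, from 0.033188 to 0.10223 in ethanol and from 0.061012 to 0.13148 in CAT_AP. Phenobarbital minus control ranged from -0.11201 to 0.89402 points in TAE and from 3.7908 to 5.7149 in HEAT for the mRNA share. For the tRNA share it ranged from -0.00048508 to 0.00015675 in ethanol, -0.0012802 to -0.00057439 in 18-hour formalin, -4.2606e-05 to 0.0033175 in 3-month formalin, -0.00077407 to 0.00020288 in TAE and -0.0002032 to 0.00060985 in CAT_PL. For the log2 ratio it ranged from -0.44491 to -0.27922 in frozen liver, -0.34056 to -0.20221 in ethanol, -0.22375 to 0.047489 in 3-month formalin, -0.20112 to 0.080585 in TAE and -0.37585 to -0.22629 in CAT_AP.

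Of the 22 tRNA genes 12 had under 10 counts in every library and were not compared.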
